A study of Mus musculus with 45 samples.

Results

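The simple epithelial keratins examined here are Krt7, Krt8, Krt18 and Krt19, 4 of the 15997 genes in the 3 stage tables of a study of mouse embryos shortly after implantation. Their rows were found by gene symbol, and all 4 were present in each table. The series asks how expression is arranged along the proximal-distal axis. Untreated embryos were taken out of the decidua, embedded in OCT, frozen and sliced. Pieces of each numbered slice were cut out under a laser, and their RNA went into Smart-seq2, which copies whole transcripts from minute amounts of RNA. Of 45 labelled samples, 2 carry the letters VE, commonly short for visceral endoderm, and come from sections 6 and 7 at E5.75 (E standing for embryonic day). The others are 7 numbered sections at E5.25, 17 section pieces at E5.5 and 19 sections at E5.75. The tables analysed here gave 7 section numbers at E5.25, 9 at E5.5 and 17 at E5.75, with sections 9 and 13 of E5.75 not analysed. The labels name no strain, sex or genotype, do not say whether section 1 is distal or proximal, and describe 1 embryo for each stage, so p-values compare sections of an embryo and not embryos. Levels are log2(FPKM + 1), where FPKM is a fragment count scaled to library size and transcript length, so that genes can be set side by side.

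Keratins are the intermediate filament proteins of epithelia. A filament is built from pairs of a type II keratin, here Krt7 or Krt8, and a type I keratin, here Krt18 or Krt19, and a chain without a partner is degraded. Krt8 and Krt18 are the first keratins of the mouse embryo and appear in the outer cells that become trophoblast, the lineage of the placenta. Krt7 and Krt19 join them in many simple, that is single-layered, epithelia, and Krt7 is widely used as a marker of trophoblast. Desmosomes, junctions that hold neighbouring cells together, anchor the filaments at the cell border through desmoplakin.

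Of the 4 genes, 3 lie in the type II keratin cluster on mouse chromosome 15, including Krt18, a type I gene placed at the edge of that cluster. In GENCODE M21 (GRCm38, the build the submitters' notes call mm10) Krt7 has 9 exons at chr15:101411043-101430313 on the plus strand. Krt8 has 9 exons at chr15:101996698-102004482 on the minus strand, and Krt18 has 7 exons at chr15:102028180-102032027 on the plus strand. The last pair are transcribed away from each other across 23697 bases that hold 0 whole annotated genes, while 22 other coding keratin genes lie between Krt7 and Krt8. Krt19 has 6 exons at chr11:100140810-100148665 on the minus strand, in the type I cluster.

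Because all 4 genes rose along the sections at E5.5 and E5.75, the promoters of the 3 with an entry in the RefSeq promoter table (GRCm38.p6) are shown, from 250 bases before to 50 bases after the annotated start, 5′ to 3′ on the gene's strand. Capitals mark matches on either strand to a TATA box (TATAAA), a GC box (GGGCGG), a TFAP2 motif (GCCNNNGGC), an AP-1 motif (TGANTCA) or a GATA motif (AGATAA).
Krt7, chr15:101412153-101412452, plus strand: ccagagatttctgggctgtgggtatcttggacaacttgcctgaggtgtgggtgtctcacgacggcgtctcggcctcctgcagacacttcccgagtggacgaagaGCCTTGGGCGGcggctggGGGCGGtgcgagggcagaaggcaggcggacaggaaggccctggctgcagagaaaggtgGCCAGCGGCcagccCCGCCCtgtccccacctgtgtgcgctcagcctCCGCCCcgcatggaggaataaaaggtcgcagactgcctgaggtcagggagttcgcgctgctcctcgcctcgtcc
Krt8, chr15:102004293-102004592, minus strand: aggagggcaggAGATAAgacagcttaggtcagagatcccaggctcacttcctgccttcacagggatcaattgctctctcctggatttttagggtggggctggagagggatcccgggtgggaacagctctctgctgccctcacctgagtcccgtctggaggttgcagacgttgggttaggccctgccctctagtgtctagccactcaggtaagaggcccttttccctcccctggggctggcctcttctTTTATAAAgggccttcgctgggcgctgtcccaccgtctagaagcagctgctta
Krt18, chr15:102027966-102028265, plus strand: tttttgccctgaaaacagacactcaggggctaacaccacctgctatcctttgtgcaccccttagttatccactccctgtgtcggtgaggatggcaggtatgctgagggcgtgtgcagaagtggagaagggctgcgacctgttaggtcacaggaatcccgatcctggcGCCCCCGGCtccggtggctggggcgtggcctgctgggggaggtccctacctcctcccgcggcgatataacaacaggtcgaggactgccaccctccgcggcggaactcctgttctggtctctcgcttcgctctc
The Krt7 window lies inside the gene span that GENCODE gives. It held 2 TFAP2 matches, beginning at -146 and -70 from the start, and 4 GC boxes, of which the first overlapped the first TFAP2 match. Krt18 had 1 TFAP2 match at -83. Krt8 had a GATA match at -239 and overlapping TATA box matches on each strand at -3 and -1, and no AP-1 match lay in these windows. Of 32841 promoters of the same length, 16.6% held the TFAP2 motif, 35.7% the GC box, 13.6% the TATA box, 11.2% the GATA motif and 7.81% the AP-1 motif. The GC content was 66.3% for Krt7, 58.0% for Krt8 and 61.3% for Krt18, against a median of 52.7% over all promoters. These matches describe the letters only, and binding was not measured.

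The low-numbered sections were poorer libraries. Genes with an FPKM of 1 or more numbered 2046 to 4282 in sections 1 to 4 at E5.25, and 5636 to 6461 in sections 6 to 8. Their number was 2288 to 4621 in the first 3 sections of E5.5 and 4954 to 6467 in the later ones, and Gapdh, a gene all cells use, was listed at 0 in section 1. At E5.75 sections 1 and 2 had 3211 and 3424 genes, against 5303 to 8217 in the others, and the VE libraries had 1496 and 2147. A value of 0 in these libraries can therefore be a failed detection. Rn45s, the ribosomal RNA precursor, took 62.2% and 48.8% of the summed FPKM in the VE libraries of sections 6 and 7. Its share at E5.5 was 26.5% to 69.8% in sections 1 to 4, 7.09% to 35.5% in sections 5 to 7 and 2.36% to 10.7% in sections 8 to 10. At E5.75 it was 52.8% and 16.4% in sections 1 and 2 and 2.88% to 16.2% in the others, and at E5.25 it was 0.555% to 26.2% in sections 1 to 4 and 0.676% to 1.99% in sections 6 to 8. The part of these shares in the keratin values was not tested. The tables hold no read counts, so depth is unknown. In bulk tissue, fewer cells that make a keratin and less of its RNA per cell cannot be told apart.

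Krt18 was the most abundant of the 4 keratins in almost every section, and Krt8 usually came next. At E5.75 Krt18 was listed at 0 in sections 1 and 2 and then stepped up through 3 levels, 4.07 to 5.15 in sections 3 to 8, 6.09 to 6.37 in sections 10 to 12 and 7.03 to 8.20 in sections 14 to 19. The highest value, in section 19, equals 294 FPKM, at rank 160 among the genes of that library. Krt8, its type II partner, was uneven in sections 3 to 8, where it lay between 0 and 3.76, and reached 3.14 to 4.28 in sections 10 to 12. It then rose section by section through 4.99, 5.35, 5.94, 6.24, 7.07 and 7.44 in sections 14 to 19, the last equal to 173 FPKM. Krt8 exceeded its highest value of sections 1 to 12 in each of sections 14 to 19, and the share of all genes that did so was not counted.

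At E5.5 this pair was already near its plateau in the middle sections. Krt8 had 0, 1.11 and 0.47 in sections 1, 2 and 4, then 4.31 in section 5 and 4.70 to 5.59 in sections 6 to 10. Krt18 had 2.67, 5.47 and 2.68 in sections 1, 2 and 4, 4.61 in section 5 and 6.10 to 6.51 in sections 6 to 10. No step was seen between sections 6 and 10 for either gene. At E5.25 Krt8 had 0, 1.11, 2.58 and 0 in sections 1 to 4, and Krt18 had 0, 0, 3.79 and 3.78. Sections 6, 7 and 8 gave 4.36, 4.45 and 4.59 for Krt8 and 6.30, 5.63 and 6.04 for Krt18.

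Krt7 and Krt19 were lower and began later in the section series than Krt8 and Krt18. At E5.75 Krt7 did not exceed 0.73 in any of sections 3 to 12, and then stood at 3.82, 4.14, 4.59, 4.86, 6.32 and 6.61 in sections 14 to 19, the last equal to 96.7 FPKM. Krt19 was listed at 0 in all of sections 1 to 8, had 3.30, 2.01 and 0 in sections 10 to 12, and had 3.38, 1.54, 4.80, 5.33, 5.88 and 7.18 in sections 14 to 19. Both genes were highest in section 19. Section 2 was an exception for Krt7, with 4.81 or 27.1 FPKM. In that library Krt8 was at 0.61 and Krt18 and Krt19 were listed at 0, while Cnn2, which encodes a calponin, reached 5.71.

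At E5.5 Krt7 was listed at 0 in sections 1, 2 and 4 and climbed through 0.40, 2.09, 2.92, 3.73 and 3.91 in sections 5 to 9, to 5.11 and 4.97 in the 2 parts of section 10. Krt19 followed a similar course, with 0 in the first 3 sections, 1.19, 1.74, 2.09, 3.80 and 4.33 in sections 5 to 9, and 3.70 and 5.12 in the parts of section 10. Krt7 thus went on climbing over the sections in which Krt8 and Krt18 stayed level. At E5.25 Krt7 had 2.96, 3.04 and 3.61 in sections 6, 7 and 8 and Krt19 had 2.79, 1.93 and 3.39. Krt19 was listed at 0 in sections 1 to 4, and Krt7 in all of these but section 1, where it had 2.40. That library had Krt8, Krt18 and Krt19 listed at 0.

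**Figure D1:**
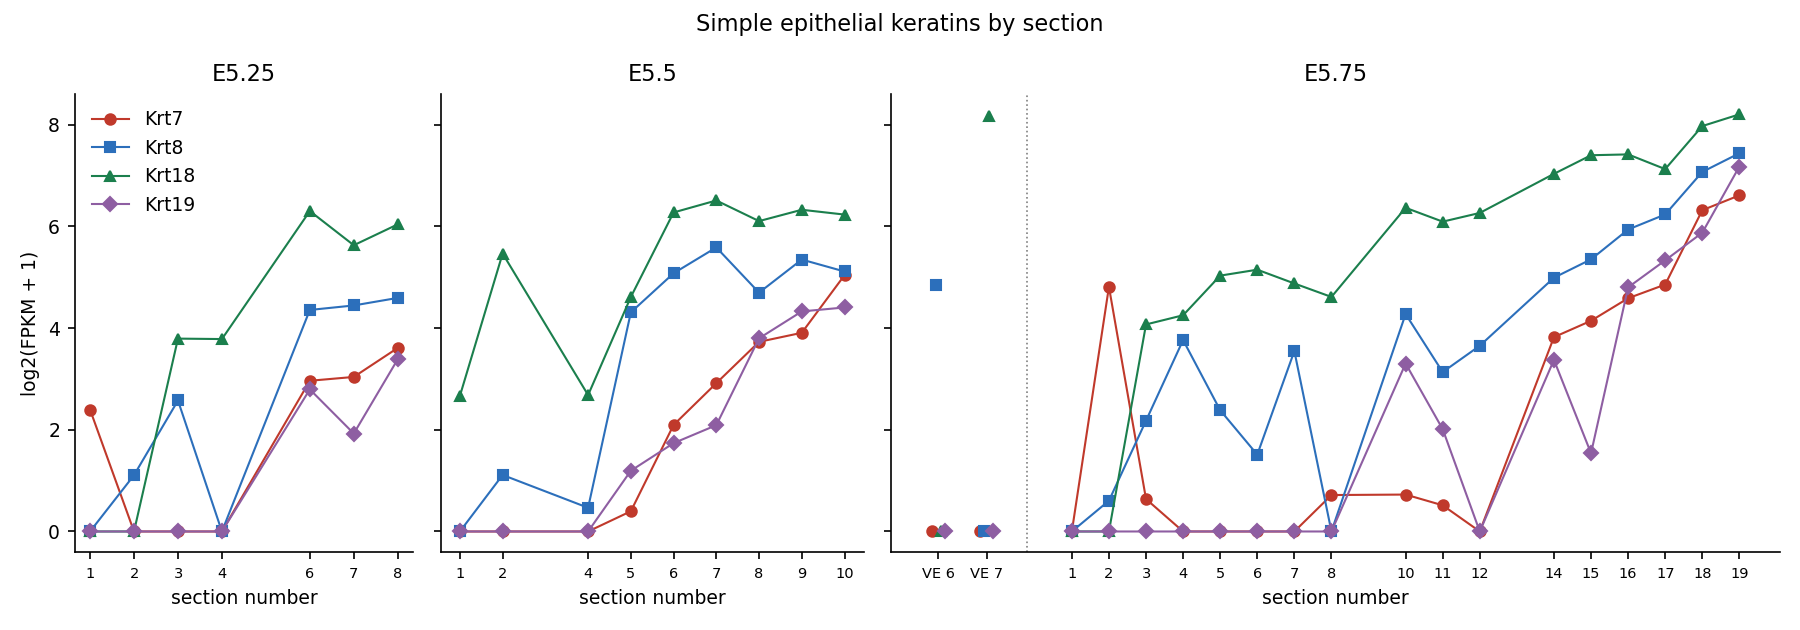
Level of each keratin as log2(FPKM + 1) on the vertical axis against section number, with 1 panel a stage. The VE libraries of sections 6 and 7 stand left of the dotted line in the E5.75 panel. Their points are shifted sideways by gene so that those at 0 can be seen. Krt18 lies highest in sections 3 to 19 of E5.75, and Krt7 stays at or below 0.73 in sections 3 to 12 before the values of 3.82 to 6.61 in sections 14 to 19.

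All 4 keratins rose along the sections at E5.75 and at E5.5, and none passed the test at E5.25. The change is the fitted difference from the first to the last section on the log2 scale with its standard error, from limma with Benjamini-Hochberg adjustment over all tested genes. The fit takes sections as independent, which neighbouring slices of an embryo need not be. At E5.75 (17 sections) it was 5.41 ± 1.21 for Krt7 (adjusted p = 0.00338), 6.30 ± 0.83 for Krt8 (adjusted p = 1.9e-05), 6.53 ± 0.81 for Krt18 (adjusted p = 9.15e-06) and 6.59 ± 0.93 for Krt19 (adjusted p = 3.63e-05). Over all 11149 genes tested, 18.9% rose and 2.07% fell, and the median change was 0.80 against 6.41 for the 4 keratins. Larger changes than that of Krt7 were found in 0.691% of tested genes, and larger ones than that of Krt19 in 0.242%. Without section 2 the change of Krt7 was 6.92 ± 0.93. The keratins kept their rise at E5.75 under quantile normalization, which lowered the median change of all genes to 0.16 and turned the split of rising and falling genes from 2108 and 231 into 845 and 500.

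At E5.5 (9 section numbers) Krt7 rose by 5.47 ± 0.84 (adjusted p = 0.000775), Krt8 by 5.82 ± 1.14 (adjusted p = 0.00217), Krt18 by 3.32 ± 1.10 (adjusted p = 0.0310) and Krt19 by 5.12 ± 0.81 (adjusted p = 0.000805). Of 8251 tested genes 28.3% rose and 2.61% fell, with a median change of 1.22. Under quantile normalization the split of rising and falling genes was 844 and 324 in place of 2332 and 215, with a median of 0.44, and Krt18 did not pass (1.92). The rise of Krt18 was the smallest of the 4, and its call was also lost in each of 4 fits that left out section 1, 7, 8 or 9, with changes of 2.28, 3.18, 3.30 and 3.36. Without sections 1 and 2 neither Krt8 (3.35) nor Krt18 (2.98) passed. With detected genes as a covariate no gene of the table passed, and Krt18 then had -0.21 ± 2.12, while Krt7 and Krt19 had 6.95 ± 1.81 and 7.43 ± 1.65. At E5.25 (7 sections) the changes were 2.88 ± 1.48 for Krt7, 4.75 ± 1.58 for Krt8, 6.53 ± 1.71 for Krt18 and 3.60 ± 1.15 for Krt19, with adjusted p = 0.166, 0.0644, 0.0549 and 0.0624 in that order. Only 0.378% of 7148 tested genes rose there and 0.028% fell, with a median change of 1.45, or 0.38 under quantile normalization. Without section 4 Krt8, Krt18 and Krt19 passed, with changes of 4.57, 6.57 and 3.52, and without section 3 Krt18 passed, with 6.97.

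**Figure D2:**
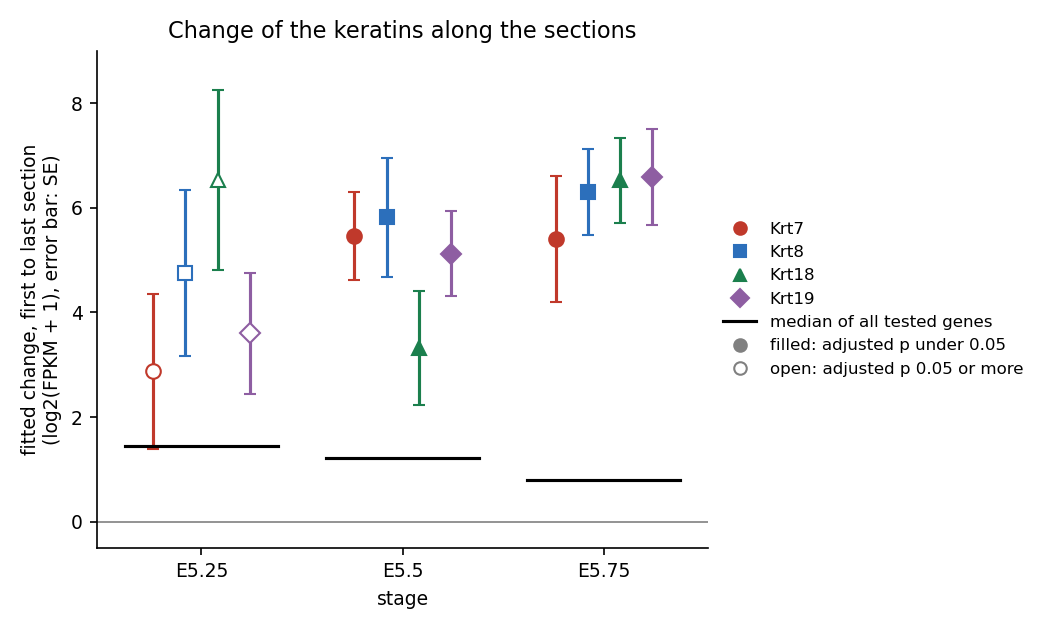
Fitted change from the first to the last section on the log2(FPKM + 1) scale, with its standard error, for each keratin and stage, with a black line at the median over all genes tested. Filled symbols passed an adjusted p of 0.05 and open ones did not; at E5.75 the 4 keratins lie between 5.41 and 6.59 over a median of 0.80.

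Krt7 was set against the other keratins within each library. At E5.75 Krt7 was below Krt18 in 15 of 17 sections and below Krt8 in 14, with mean differences on the log2 scale of -3.18 and -1.43. Against Krt19 it was below in 5 sections, above in 6 and equal at 0 in 6, with a mean difference of 0.25. At E5.5 Krt7 was below Krt18 in all 9 sections and below Krt8 in 8, and below and above Krt19 in 3 each. At E5.25 the mean differences were -1.93 to Krt18, -0.72 to Krt8 and 0.56 to Krt19. By mean difference Krt7 lay nearer to Krt19 than to Krt8, the other type II keratin, at E5.75 and E5.5, and less clearly at E5.25. Sections with Krt7 and Krt19 both at 0 draw the Krt19 mean toward 0. In section 10 of E5.5, where Krt7 was highest at that stage, it was -0.07 from Krt8 and 0.63 from Krt19. These are means over the parts of that section. Krt7 was above Krt19 in part A, at 5.11 against 3.70, and below it in part B, at 4.97 against 5.12. Levels across genes also rest on transcript length, 4094 bases in the Krt7 model used here and 1437 to 1958 in the others. The annotation behind the FPKM values is not given.

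Whether Krt7 changed along the sections by another amount than its relatives was tested as the slope of these differences on section number (2-sided permutation test, exact with 7 or 9 sections and with 100000 resamples with 17, adjusted over 9 comparisons). None of the 9 passed on the log2(FPKM + 1) scale. With a pseudocount of 0.1 in place of 1, Krt7 minus Krt18 at E5.5 changed by 6.10 ± 1.10 and passed (adjusted p = 0.00801, exact permutation test). Krt7 was listed at 0 in sections 1, 2 and 4 of that stage, which can be failed detection. A smaller pseudocount sets such zeros further from the other values. At E5.75 the change of Krt7 minus Krt8 was -0.90 ± 1.52, of Krt7 minus Krt18 -1.12 ± 2.07 and of Krt7 minus Krt19 -1.18 ± 1.20 (adjusted p = 0.702 for each by the permutation test). Section 2 decided the direction, since without it the values were 0.71 ± 1.12, 1.17 ± 1.42 and 0.052 ± 0.91. At E5.5 they were -0.35 ± 1.52, 2.15 ± 1.16 and 0.34 ± 0.54 (adjusted p = 0.821, 0.702 and 0.702, exact permutation test), and without section 1 the first became 0.83 ± 1.61. At E5.25 they were -1.87 ± 1.67, -3.65 ± 2.20 and -0.72 ± 1.02 (adjusted p = 0.702 for each, exact permutation test), of which the first and the last became 0.28 ± 1.04 and 0.66 ± 0.44 without section 1. Without sections 1 and 2 the change of Krt7 minus Krt18 at E5.25 was 1.49 ± 0.27. The standard errors leave room for sizeable differences in either direction.

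A line over all sections does not show the shape of these differences. At E5.75 Krt7 minus Krt8 was -3.65 in section 12 and -1.17 in section 14, and stayed between -1.38 and -0.75 in sections 14 to 19. Krt7 minus Krt18 was -6.27 in section 12, -3.21 in section 14 and -1.59 in section 19. At E5.5 Krt7 minus Krt8 was -3.91 in section 5 and -0.07 in section 10. Sections 12 and 5 were among those with the widest gaps. Krt7 minus Krt8 was also small in some low-numbered sections, at 0, -1.11 and -0.47 in sections 1, 2 and 4 of E5.5 and at -1.54, -1.51 and 0.72 in sections 3, 6 and 8 of E5.75. These values are a description with no test of their own.

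**Figure D3:**
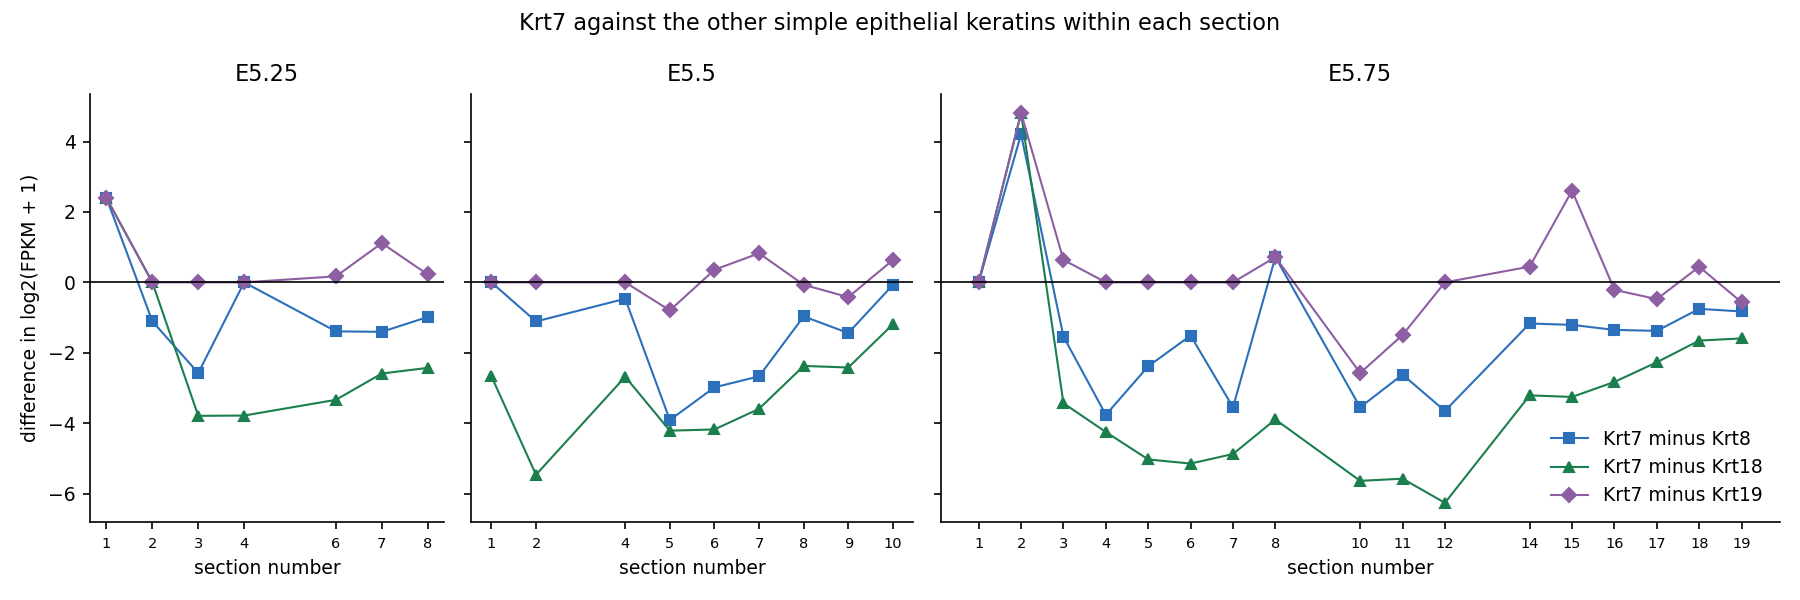
Difference in log2(FPKM + 1) between Krt7 and Krt8, Krt18 or Krt19 in the same section, against section number, with 1 panel a stage and a line at 0. The points of section 2 at E5.75 lie between 4.21 and 4.81, far above the rest, and the differences to Krt8 and Krt18 are -0.83 and -1.59 in section 19.

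The 4 keratins were also added up in FPKM, which is additive where the log2 scale is not. At E5.75 the sum was 19.9 to 39.1 in sections 3 to 8, 78.6 to 109 in sections 10 to 12 and 183 to 707 in sections 14 to 19. Krt18 made up 58.9% to 97.3% of it in sections 3 to 8 and 41.6% in section 19, where Krt8 made up 24.4%, Krt19 20.3% and Krt7 13.7%. The make-up was thus more even where the sum was highest. The ratio of type I to type II keratin was 1.43 to 36.5 in sections 3 to 8, 4.75 to 8.56 in sections 10 to 12 and 1.45 to 3.17 in sections 14 to 19, so sections 4 and 7, at 1.43 and 2.65, were about as low as the last stretch. Krt7 amounted to at most 0.055 of the FPKM of Krt8 in sections 10 to 12, and to 0.376 to 0.590 of it in sections 14 to 19. At E5.5 that ratio was 0.017 in section 5 and 0.949 in section 10, and at E5.25 it was 0.349, 0.347 and 0.484 in sections 6, 7 and 8.

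**Figure D4:**
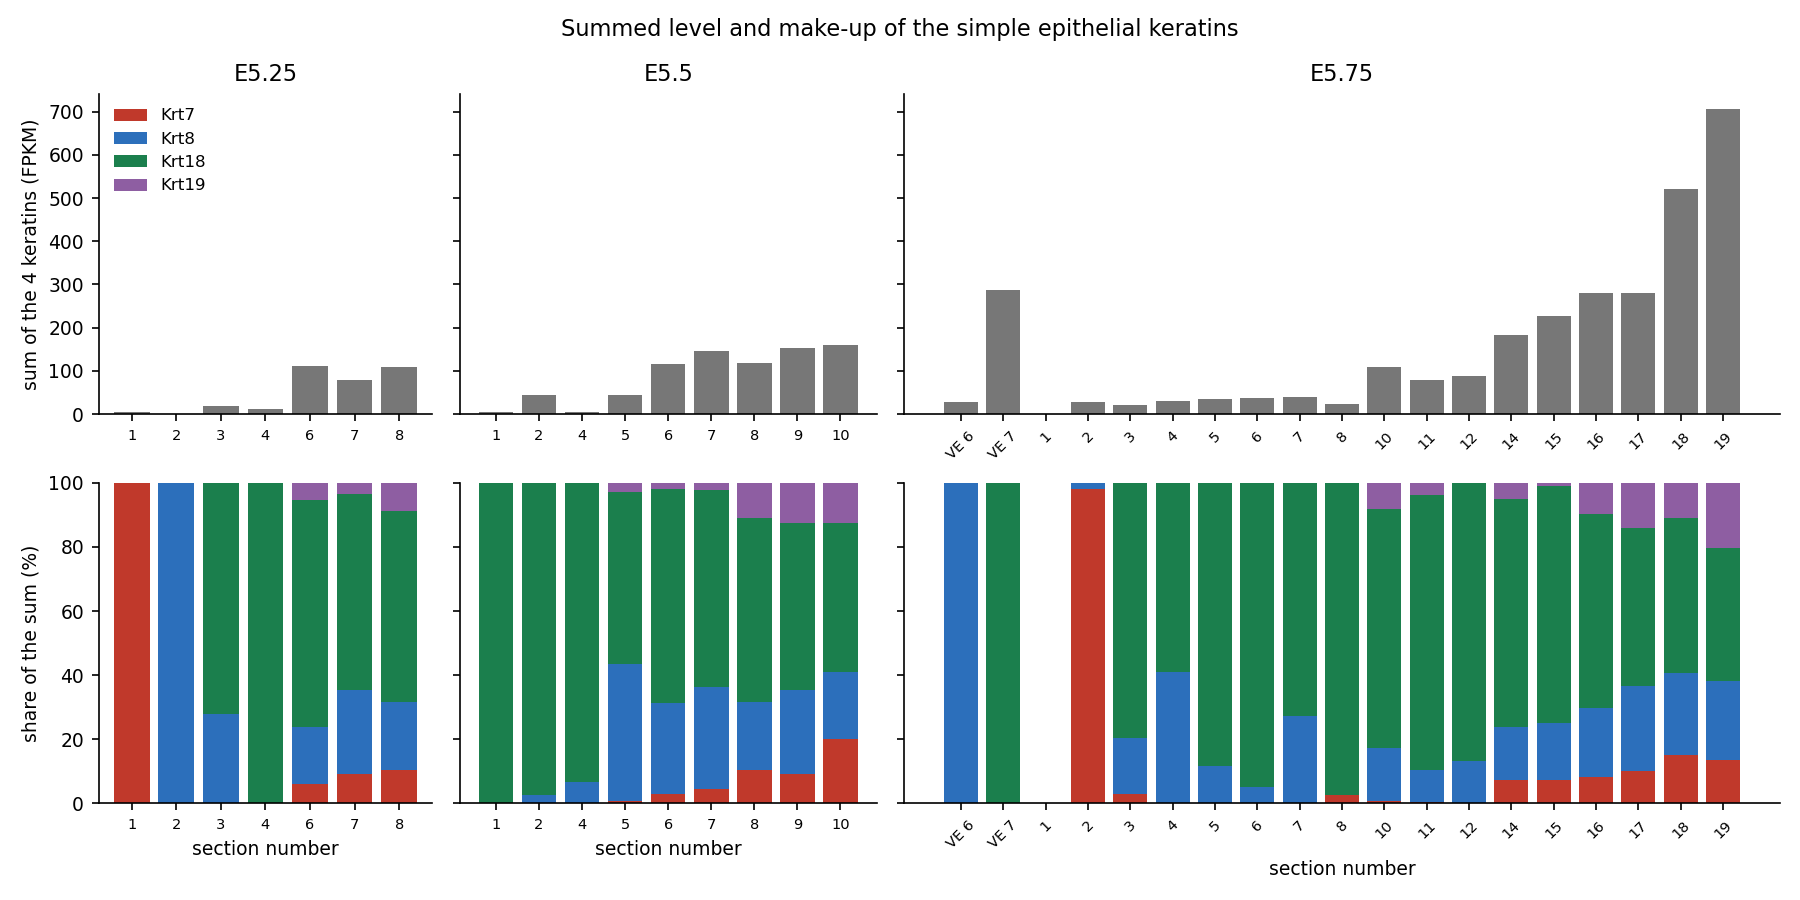
Upper row, sum of the 4 keratins in FPKM by section, and lower row, share of each keratin in that sum in percent, with the VE libraries left of the sections at E5.75. Section 1 of E5.75 has no bar because all 4 were listed at 0. In section 19 of E5.75 the sum is 707 FPKM, of which Krt18 makes up 41.6%.

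The VE libraries each held a single keratin. Krt8 was at 4.84 and 0 in VE of sections 6 and 7, against 1.51 and 3.55 in the section libraries of the same numbers. Krt18 was at 0 and 8.18 in VE, against 5.15 and 4.88 in the sections. The VE library of section 6 thus had Krt8 at 27.7 FPKM with no Krt18, and that of section 7 had Krt18 at 288 FPKM with no Krt8. Krt7 and Krt19 were listed at 0 in both VE libraries and in both sections, and were not tested. Krt8 differed by -0.11 ± 2.13 (VE minus sections, adjusted p = 0.976 in limma) and Krt18 by -0.93 ± 3.35 (adjusted p = 0.865). Of 6413 tested genes 0.624% were higher and 56.6% lower in VE, with a median difference of -2.09. Each of these values rested on single libraries, since Krt8 differed by -2.53 and Krt18 by 3.16 without VE of section 6, and by 2.31 and -5.01 without VE of section 7. Of the visceral endoderm list, 6 and 9 of 18 genes reached an FPKM of 1 in the VE libraries of sections 6 and 7. Over all 13618 genes at E5.75, 1496 and 2147 did so in VE, and 7556 and 7385 in the section libraries of the same numbers. Those section libraries had 9 and 7 genes of the visceral endoderm list at an FPKM of 1. The list summed to 307 and 1121 FPKM in VE, against 68.8 and 50.9 in these sections. Of 9 genes of that list tested, 2 were higher in VE, Apob and Apoe. Under quantile normalization 0 of the 6413 genes passed in either direction and the median difference was -0.63, so these 2 calls were lost as well. Of the epiblast list, 2 and 7 of 11 genes reached an FPKM of 1 in the VE libraries, and 11 of 11 in each of the section libraries. Dsp, which encodes desmoplakin, was at 0.71 and 5.93 in VE.

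Other keratins were nearly absent. Besides the 4 genes, 8 genes named Krt with a number were listed in any table, namely Krt2, Krt10, Krt12, Krt13, Krt25, Krt34, Krt71 and Krt79. At E5.75 their sum did not exceed 10.4 FPKM in any section, a value reached in section 1 through Krt71, a hair root keratin, at 3.52 on the log2 scale. Krt10, a keratin of the upper epidermis, was the only one of them with an FPKM of 1 or more in as many as 5 sections at E5.75. Krt10 and Krt71 were tested at E5.75 and neither passed, with changes of -0.0044 ± 0.66 (adjusted p = 0.997) and -0.52 ± 0.69 (adjusted p = 0.610). Krt10 did not pass at E5.5 or E5.25 either, with changes of 1.12 ± 0.75 and 1.04 ± 0.66.

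Genes of the desmosome and of keratin anchoring rose at E5.75 in 5 of 10 tested cases, out of a list of 15, and fell in 0, with a median change of 1.58 against 0.80 over all genes, of which 18.9% rose. Dsp, the link from desmosome to keratin, rose by 4.74 ± 0.58 (adjusted p = 7.99e-06) and stood at 0 to 0.61 in sections 1 to 8, 1.78 to 3.22 in sections 10 to 12 and 2.76 to 4.59 in sections 14 to 19. Jup, which encodes plakoglobin, rose by 2.45 ± 0.50 and Pkp2, which encodes plakophilin-2, by 2.97 ± 0.77. The desmosomal cadherins Dsc2 and Dsg2 rose by 2.44 ± 0.66 and 2.16 ± 0.59; Dsg2 is outside the naming rule and was chosen after its values were seen. At E5.5 2 of 8 tested genes rose, Dsp by 1.82 ± 0.61 and Jup by 2.05 ± 0.60, a share near the 28.3% of all tested genes that rose. At E5.25 0 of 6 did, where 0.378% of all tested genes rose. Dsp was thus already raised in sections 10 to 12, where Krt7 was not above 0.73.

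Among 9 other intermediate filament genes tested at E5.75, 2 rose and 3 fell, against 18.9% and 2.07% of all tested genes. The neuronal filament genes Ina, Nefl and Nefm fell by 3.85 ± 0.80, 2.77 ± 0.69 and 2.68 ± 0.92 (adjusted p = 0.00183, 0.00731 and 0.0398 in limma). Ina stood at 2.35 to 4.29 in sections 1 to 8 and at 0 to 0.99 in sections 10 to 19. Lmna, which encodes the nuclear lamins A and C, rose by 2.81 ± 0.70 (adjusted p = 0.00714), and Lmnb1, another lamin gene named after its values were seen, rose by 1.96 ± 0.70 (adjusted p = 0.0497). At E5.5 1 of 7 rose, Lmna by 3.29 ± 0.87, against 28.3% of all tested genes, and at E5.25 0 of 2 did, against 0.378%. The cytoplasmic filament genes that passed at E5.75 other than keratins were thus all falling ones.

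**Figure D5:**
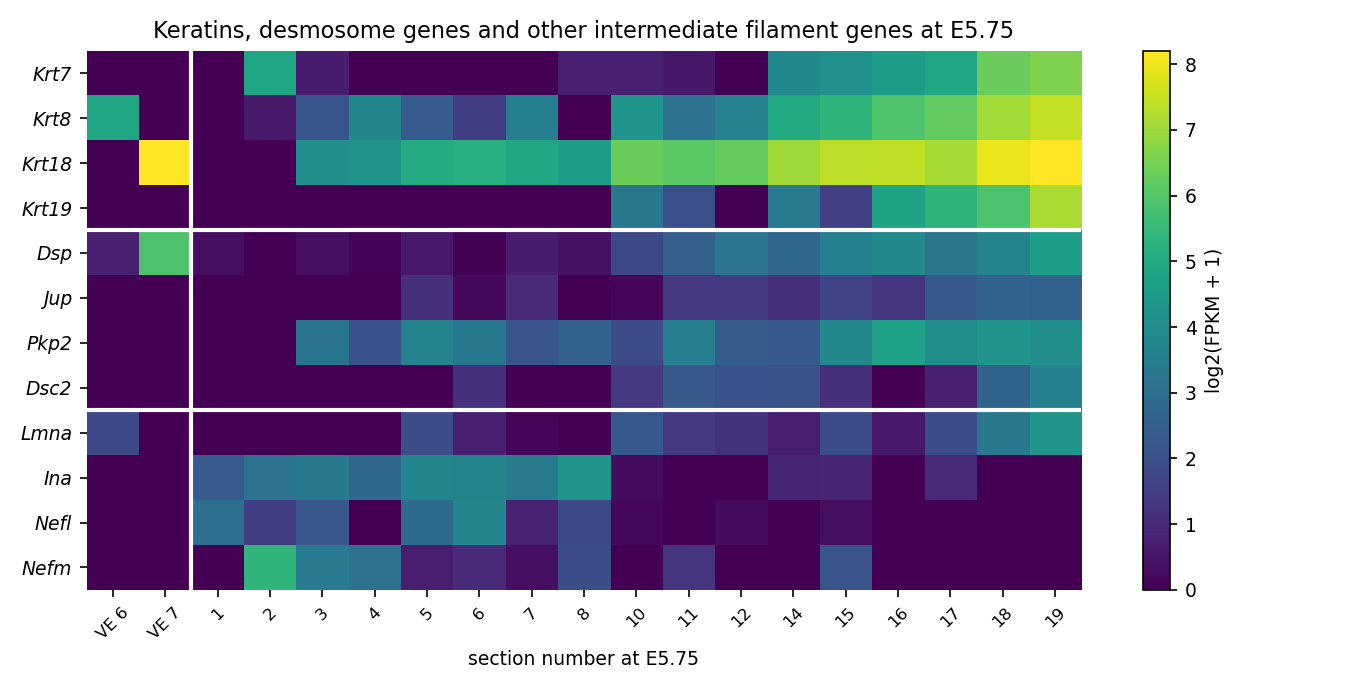
Colour gives log2(FPKM + 1) of the 4 keratins, 4 desmosome genes and 4 other intermediate filament genes in each E5.75 library, with VE left of the white line and sections in order to its right. Dsp brightens from section 10 on, Krt7 from section 14 on apart from 4.81 in section 2, and Ina is at 2.35 to 4.29 in sections 1 to 8 and at most 0.99 thereafter.

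Marker lists of other tissues moved along the same series, and their part in the keratin values was not tested. At E5.75 the trophoblast list summed to 0 to 0.079 FPKM in sections 1 and 2, 8.17 to 25.2 in sections 3 to 8, 283 to 310 in sections 10 to 12 and 405 to 1669 in sections 14 to 19, and 13 of its 14 genes rose. At E5.5 6 of 12 tested trophoblast genes rose and at E5.25 1 of 9 did, Phlda2, by 8.13 (adjusted p = 0.0442). Of the epiblast list 9 of 11 genes fell at E5.75 and none passed at the earlier stages. Of the visceral endoderm list 0 of 16 passed at E5.75, in a fit of a line that does not show a fall followed by a rise. The list summed there to 135 to 620 FPKM in sections 1 and 2, 3.49 to 68.8 in sections 3 to 8 and 43.1 to 84.7 in sections 10 to 12. In sections 14 to 19 its sum was 21.7 to 356, lowest in section 19. At E5.5 Apoe rose and Apob fell, and these 2 genes are named after their values were seen. Of the parietal endoderm list 3 of 9 rose at E5.75 and 3 of 8 at E5.5, Sparc and Snai1 at both. All these counts of genes stand against 18.9% of all tested genes rising and 2.07% falling at E5.75, and 28.3% and 2.61% at E5.5. The 3 of 8 is near the share of all genes. At E5.25 0.378% of all tested genes rose and 0.028% fell. Of the decidua and uterine epithelium list 4 of 6 rose at E5.75, among them Htra1 by 3.55 ± 0.71, and the summed level of the list was 34.3 to 325 FPKM in sections 14 to 19. At E5.5 4 of 6 rose and 1 fell, Hoxa10, named after its values were seen. Uterine epithelium also makes simple epithelial keratins, and the progesterone receptor gene Pgr, Ltf and Hoxa11 of that list were not tested at E5.75.

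Likeness to a keratin over the 17 E5.75 sections was ranked among 3848 tested genes with a mean FPKM of at least 5. Unnamed gene models and symbols that look joined were left out of these. The genes most like Krt7 were Cnn2, B4galt5, Sema3f, Efhd2 and Ascl2, with Pearson correlations of 0.91, 0.88, 0.88, 0.82 and 0.81. The first 3 share with Krt7 a high value in section 2, of 5.71, 3.20 and 4.26 on the log2 scale. Ascl2, a transcription factor needed for the spongiotrophoblast of the mouse placenta, was listed at 0 in section 2 and stood at 3.88 to 5.91 in sections 14 to 19. For Krt8 the nearest were Phlda2, Crim1, Ifi30, Dusp9 and Ctdspl, with correlations of 0.94, 0.92, 0.91, 0.91 and 0.90. Among the keratins Krt19 was nearest to Krt7, at rank 11 with a correlation of 0.80, and Krt8 and Krt18 came at ranks 52 and 540 with 0.68 and 0.42. Section 2, with Krt7 at 4.81 and Krt18 at 0, is among these points. The Spearman correlation, which uses only the order of the values, was 0.80 with Krt19, 0.63 with Krt8 and 0.62 with Krt18. At E5.5 the correlation of Krt7 with Krt19 over 9 sections was 0.97, against 0.80 with Krt8 and 0.76 with Krt18. The points of such a correlation share their libraries and the number of genes detected in them, so these values are descriptions.

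A copy of Krt8 limits its values. The processed pseudogene Krt8-ps aligned to the Krt8 transcript at 98.6% identity over 941 bases, and reads of the gene and its copy could have been split or joined in counting. The nearest copy of Krt18, Gm5200, aligned at 90.45% over 1267 bases, and Krt7 and Krt19 had no copy of 95% identity over 500 bases or more. Krt7 is overlapped on the other strand by Gm671 over 1269 bases and Krt8 by Gm36026 over 271 bases. Smart-seq2 does not mark the strand, so reads of these pairs cannot be told apart there. Krt8-ps, Gm5200, Gm671 and Gm36026 were not listed at any stage, so their own levels are unknown.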

How the data were processed

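Laser-captured embryo sections of 3 stages were sequenced with Smart-seq2, per the labels' protocols. TopHat2 2.0.4, Cufflinks 2.0.2 and build mm10 were used, per the submitters' processing notes, which give no roles; the annotation and the normalization step are not given in the sources used here. The deposited tables, 1 per stage, were read as the authors' log2(FPKM + 1), from the table names and from values that start at 0. Whether the 3 tables were normalized together is not given in the sources used here, so each stage was fitted alone and levels are compared within a stage. Columns of values left unused were 0. At E5.5 the authors deposited joined values for sections whose labels list parts; the 2 columns of section 10 were averaged, and the labels of the second conflict on its section number.

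Genes that reached an FPKM of 1 in 2 or more fitted libraries were tested with limma 3.58.1 in R 4.3.3 (eBayes with trend, 2-sided, Benjamini-Hochberg at 0.05 over all tested genes), as a line in section number scaled from 0 to 1. VE was compared with the libraries of sections 6 and 7 without a block. Shared section numbers are positions, and the correlation of deviations of same-numbered libraries was 0.000773 over 6413 genes. Differences between Krt7 and the other keratins were tested as slopes by permutation, which takes sections as exchangeable. Likeness between neighbouring sections was not modelled in the fits or the permutation tests. Changes on a log2(FPKM + 1) scale understate those of low genes. Named genes were the 4 keratins, every other Krt gene, up to 4 genes of each list with the smallest p at E5.75, and the 5 genes most correlated with Krt7 and with Krt8. Members, gene lists and the section ranges used to give values were chosen with earlier results of these data known. Fits and permutation tests were checked on simulated data with independent normal noise. That check does not cover zeros, changes in detection along the sections or likeness of neighbouring sections, which the simulated data lack. Alternatives were pseudocounts of 0.1 and 5, other filters, quantile normalization, detected genes as covariate, upper against lower sections, and leaving out sections or libraries. Gene models are GENCODE M21, promoters RefSeq; figures used matplotlib 3.10.9.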

Additional observations from a re-analysis of the deposited data

How the results depend on the processing

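At E5.75 the rise of Krt7, Krt8, Krt18 and Krt19 kept its direction and its side of the threshold in each of 8 other settings and in each fit that left out a section. The number of genes that passed there, 2339, was 1345 with quantile normalization, 624 with detected genes as covariate, 1356 for upper against lower sections and 1407 without sections 1 and 2. At E5.5 the count of 2547 became 1168, 0, 1521 and 309 in these settings, with a split of 844 rising and 324 falling under quantile normalization. Krt18 no longer passed at E5.5 with no filter (3.32), quantile normalization (1.92), upper against lower sections (2.44) and without sections 1 and 2 (2.98), where Krt8 had 3.35 and did not pass either; over single left-out sections Krt18 ranged from 2.28 to 4.38. With detected genes as covariate none passed, with 6.95 for Krt7, 1.84 for Krt8, -0.21 for Krt18 and 7.43 for Krt19. At E5.25 the count of 29 became 1006 and 0 with pseudocounts of 0.1 and 5, 0 with no filter, 877 with a filter at 5, 0 with quantile normalization or the covariate, 1070 for upper against lower sections and 18 without sections 1 and 2, and 3 to 818 over single left-out sections. Keratins that passed there were Krt18 (9.80) and Krt19 (7.60) with a pseudocount of 0.1, Krt8, Krt18 and Krt19 with the filter at 5 (4.75, 6.53 and 3.60) and for upper against lower sections (3.24, 4.73 and 2.70). Over single left-out sections Krt8 ranged from 3.98 to 5.08, Krt18 from 5.21 to 6.97 and Krt19 from 2.72 to 3.94.

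Of the Krt7 differences, a pseudocount of 0.1 gave 1.25 to Krt8 and 6.10 to Krt18 at E5.5, of which the Krt18 value passed, and 0.29 to Krt8 at E5.75. Without sections 1 and 2 the values were 0.53, 1.49 and 0.63 to Krt8, Krt18 and Krt19 at E5.25, 1.74 to Krt8 at E5.5, and 1.49, 2.76 and 0.069 at E5.75. Over single left-out sections the ranges were -2.54 to 0.28 and -1.23 to 0.66 for Krt8 and Krt19 at E5.25, -1.41 to 0.83 for Krt8 at E5.5, and -1.46 to 0.71, -1.81 to 1.17 and -1.68 to 0.052 for Krt8, Krt18 and Krt19 at E5.75.

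In the VE comparison Krt8 had 0.19 against sections 3 to 8, 0.30 with a pseudocount of 5 and 1.41 with quantile normalization, and Krt18 had 0.076 with a pseudocount of 5. Over single left-out libraries Krt8 ranged from -2.53 to 2.31 and Krt18 from -5.01 to 3.16. The count of 3671 genes became 2297 against sections 3 to 8, 0 with quantile normalization and 2 to 5624 over left-out libraries. With a replicate block on section number Krt8 had -0.11 (adjusted p = 0.975, limma) and Krt18 -0.93 (adjusted p = 0.833), and 3800 genes passed; the block changed no call of a keratin. The cause of these changes was not tested. Depth is unknown, and with 1 embryo a stage nothing here measures variation between embryos.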
